A study of Homo sapiens with 12 samples.

Results

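The genes described here encode Mediator, TFIID and the general transcription factors of RNA polymerase II, together with the acetyltransferases EP300 and CREBBP. They were chosen by name: protein-coding genes whose symbol is MED or TAF followed by a digit, starts with GTF2, or is TBP, CDK8, CDK19, CCNC, EP300 or CREBBP. The rule found 80 genes among 19674 protein-coding genes in a count table of 60604 gene identifiers, and it used no measured value. It was, however, chosen with earlier results of these data known. The samples were 12 RNA-seq libraries of 293T cells, the human embryonic kidney line HEK293T. In 4 libraries no vector was transfected ("no plasmid" below); the labels call these cells non-transfected in one place and given transfection reagents alone in another. The next 4 received the plasmid sgRNA-dCas9-VP160-P2A-EGF, which encodes a Cas9 without nuclease activity fused to VP160, an array of VP16 activation domains, and the other 4 received it with 6 CD34-gRNAs, which direct the fusion to the CD34 promoter. RNA was taken 48 h after transfection with lipofectamine. Each group was run in 2 experiments, each on its own batch of cells, with 2 technical replicates in each, so that n = 2 experiments per group. There was no control plasmid lacking the fusion, and effects of plasmid DNA, of transfection and of the VP160 fusion cannot be told apart. No group received guides without the CD34 target, so effects of targeting CD34 and of adding guides cannot be told apart either. No source used here names the promoter that drives the fusion.

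Transcription of protein-coding genes starts when a preinitiation complex forms at the core promoter. TFIID, made of the TATA-binding protein TBP and its associated factors (TAFs), binds promoter DNA and nucleosomes; TFIIA steadies that contact; TFIIB positions RNA polymerase II; TFIIF travels with the polymerase; TFIIE recruits TFIIH, which opens the DNA. Mediator joins activators bound to DNA with this machinery through its tail, middle and head modules and the scaffold subunit MED14, and a separable kinase module (CDK8 or CDK19, CCNC, MED12 and MED13 or their paralogs) controls its contact with the polymerase. The activation domain of VP16, a protein of herpes simplex virus, is known to bind several of these proteins, among them TBP, TFIIB, the TFIIH subunit GTF2H1, MED25, MED17, TAF9 and CREBBP. The measurements are of the RNAs of these genes, not of the proteins or complexes.

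Libraries held 6750035 to 11932244 counts over genes. CD34, the target of the guides, had 664 to 942 counts in the 4 libraries with guides, 7 to 10 in those with dCas9-VP160 alone and 13 to 28 in those without plasmid. Of 7 genes fixed as markers of this cell line, LIN28B, NEFL, CDH2, VIM and KRT18 stood at 28.4 CPM or more in every library (CPM, counts scaled by the TMM-adjusted total of the library), whereas PAX2 and NEFM stayed at or under 3.63 CPM. Of 8 markers of other cell types, COL1A1 stood at 20.1 to 30.5 CPM and no other passed 0.468 CPM; their summed level was 27.3 to 30.7 CPM without plasmid, 20.9 to 30.1 with dCas9-VP160 and 21.9 to 30.0 with guides. The share of counts from mitochondrially encoded genes was 8.31 to 8.78% without plasmid, 5.14 to 5.63% with dCas9-VP160, and with guides 5.57 and 5.59% in the replicate 1 libraries but 7.44 and 7.5% in the replicate 2 libraries. Spike-in sequences made up 0.719 and 0.404% of the no-plasmid libraries of experiment 1 and at most 0.00818% of every other library. In bulk RNA, a change in every cell and a change in a share of the cells cannot be told apart.

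Of the 80 genes, 77 passed the filter on low counts and were tested. TAF1L, a retrocopy of TAF1, was at 0 in all 12 libraries, which allows up to 0.25 to 0.439 CPM (3 counts, counting error only), and GTF2A1L and GTF2H4 stayed under 0.58 CPM. On the same strand, GTF2H4 shares 79.0% of its exon bases with VARS2, and GTF2A1L shares 76.8% with STON1-GTF2A1L. Reads there may not have been counted for these genes, so their low values are uncertain and do not show that the RNA was absent. Levels can be compared between genes only per length. The length used was that of all annotated exons together, so the order of genes depends on the annotation. In cells without plasmid, the mean over 2 experiments, per kb of annotated exon, spanned from 85.2 ± 5.3 CPM per kb (SD, n = 2) for TAF7, the TFIID subunit that holds the TAF1 acetyltransferase in check, to 0.125 ± 0.00698 for GTF2IRD2, with a median of 10.4 over the 77 genes. After TAF7 came TAF9B (50.5 ± 0.21), MED10 (40.3 ± 4.81), TAF9 (36.1 ± 3.18) and MED4 (32.4 ± 0.227). The neighbours MED10 and TAF9 differed by less than the SD of MED10, and TAF9 and MED4 by more than the SD of either. Among subunits of the same complex, levels per kb differed widely: TAF4, a histone-fold scaffold of TFIID, stood at 0.48 ± 0.0342 CPM per kb, and its paralog TAF4B at 3.43 ± 0.00564.

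**Figure D1:**
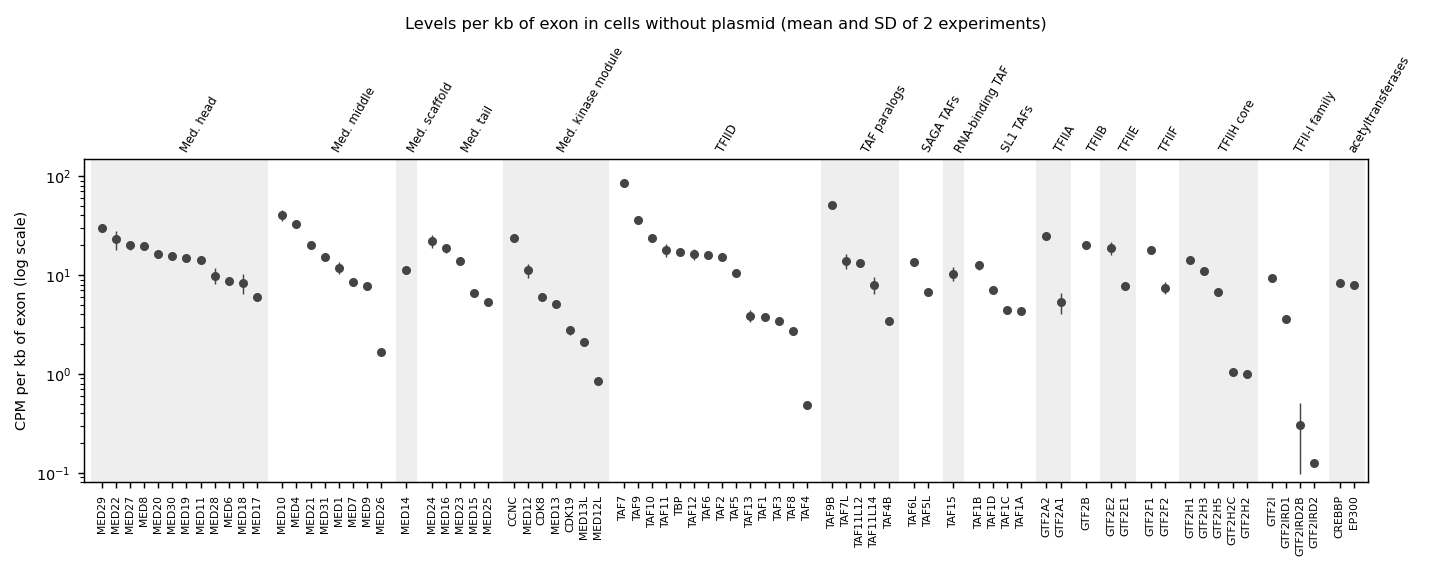
Level of each of the 77 tested genes in cells without plasmid, in CPM per kb of exon on a log axis (points, mean of 2 experiments; bars, SD), grouped by role. Most genes lie between 1 and 40 CPM per kb; TAF7 is the highest at 85.2, and TAF4 and the GTF2IRD2 genes are the lowest.

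The first question was which of these RNAs differed between cells with dCas9-VP160 alone and cells without plasmid. The general factors were mostly higher, TFIID genes were mostly higher or not called, and Mediator was split, as were all genes tested. Of the 77 genes, 28 were called higher and 23 lower at an adjusted p under 0.05, so that 66.2% were called, against 51.2% of all 19662 genes tested (26.6% higher, 24.6% lower). The members are more abundant than most genes, with a median level of 45.5 CPM against 15.4 CPM over all genes tested, and the part of abundance in the share called was not tested. Changes were small: the median size of a called log2 fold change was 0.314 among the members and 0.434 among all called genes, and the median log2 fold change was 0.01 over the members and -0.002 over all genes. In 36 genes (46.8%, against 37.1% of all genes tested) the 4 libraries of one group lay wholly above or below the 4 of the other, 20 upwards and 16 downwards. Without the experiment as a block in the model, 14 genes were called higher and 10 lower. In experiment 2 alone, which holds neither of the 2 libraries with the higher spike-in shares, 18 were higher and 16 lower; with the mitochondrially encoded genes left out, 28 were higher and 24 lower. Of the 51 calls, 21 held under all 24 alternative settings. The shares of all genes called under the alternative settings are not given, here or below. These counts thus do not show whether the members lost more calls than other genes did.

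**Figure D2:**
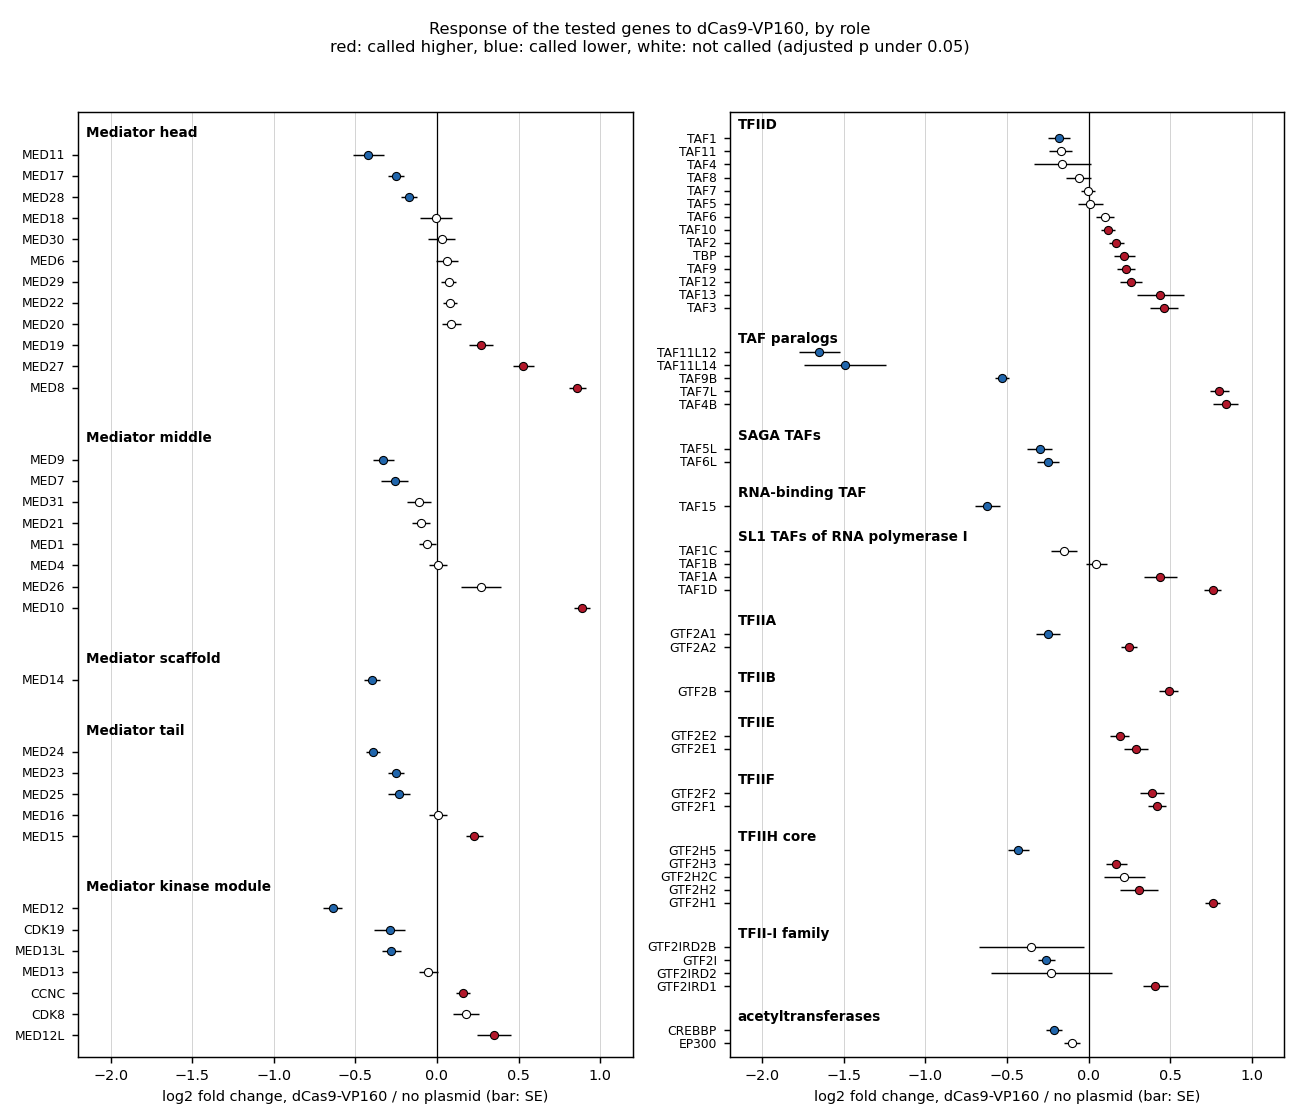
Log2 fold change of dCas9-VP160 over no plasmid for the 77 tested genes, by role (points, edgeR estimate; bars, approximate SE; red, called higher; blue, called lower; white, not called). TFIIB, TFIIE and TFIIF lie wholly to the right of 0, Mediator is spread on both sides from -0.64 for MED12 to 0.89 for MED10, and the TAF paralogs run from -1.65 for TAF11L12 to 0.84 for TAF4B.

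Among the 12 tested genes of TFIIA to TFIIH, 9 rose, 2 fell and 1 was not called, with a median log2 fold change of 0.266 (all genes, -0.002). That is 91.7% called, against 51.2% of all genes tested. In experiment 2 alone 6 rose and 1 fell, and without the experiment block 5 and 1. GTF2H1 (ENSG00000110768, chr11:18322295-18367044, plus strand, GRCh38, GENCODE 29 annotation), the TFIIH subunit that activation domains such as VP16 contact, had the largest change. Its values, given here and below in the order experiment 1 replicates 1 and 2, experiment 2 replicates 1 and 2, were 91.7, 98.2, 98.8 and 104 CPM without plasmid, 156, 154, 182 and 176 CPM with dCas9-VP160 and 151, 152, 174 and 164 CPM with the guides. All 8 libraries with plasmid exceeded all 4 without, and the rise with dCas9-VP160 was 1.7-fold (log2 fold change 0.76, SE 0.044, adjusted p = 9.61e-14). GTF2B (ENSG00000137947, chr1:88852932-88891944, minus strand), the single subunit of TFIIB, stood at 44.1, 41, 48 and 47.1 CPM without plasmid, at 61.2, 64.5, 65.3 and 61.8 CPM with dCas9-VP160 and at 64.9, 59.3, 70.7 and 66.3 CPM with the guides. The no-plasmid libraries were again the 4 lowest, and GTF2B rose 1.4-fold (log2 fold change 0.49, SE 0.06, adjusted p = 1.27e-07).

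Both subunits of TFIIF rose, GTF2F1 by 0.42 (SE 0.056) and GTF2F2 by 0.39 (SE 0.072) on the log2 scale. So did both subunits of TFIIE, GTF2E1 by 0.29 (SE 0.075) and GTF2E2 by 0.19 (SE 0.059). The call of GTF2E1 was lost with DESeq2, without the experiment block and in experiment 2 alone. That of GTF2E2, whose groups overlapped, was lost with DESeq2, without the block, and in each experiment or replicate set taken alone. TFIIA was split: GTF2A2, its small subunit, rose by 0.25 (SE 0.049), and GTF2A1, the precursor of its large subunits, had a log2 fold change of -0.25 (SE 0.072) that was called lower. The groups of GTF2A1 overlapped. Its call was lost with DESeq2, without the experiment block, with the replicate 1 libraries alone and in experiment 2 alone. It was also lost without the no-plasmid library of experiment 2 replicate 2 (-0.21, adjusted p = 0.0651). In TFIIH, GTF2H5, the smallest core subunit and a stabiliser of the complex, fell (log2 fold change -0.43, SE 0.065, adjusted p = 3.68e-06), in the opposite direction to GTF2H1. GTF2H3, at 0.17, and GTF2H2, at 0.31, passed the test, and each lost the call when the dCas9-VP160 library of experiment 1 replicate 1 was left out (adjusted p = 0.157 and 0.114), as well as on leaving out the no-plasmid library of experiment 2 replicate 2. Further single libraries that ended these calls were dCas9-VP160 experiment 2 replicate 1 for GTF2H3, and dCas9-VP160 experiment 2 replicate 2 and no plasmid experiment 1 replicate 2 for GTF2H2. GTF2H2 and GTF2H2C are near-identical copies whose reads can be split between them, so both values are uncertain. In the kinase and helicase part of TFIIH outside the naming rule, CDK7, its kinase, rose (log2 fold change 0.48, SE 0.067, adjusted p = 1.14e-06) with MNAT1, the assembly factor of that kinase (0.3), ERCC3, the translocase that opens DNA, fell by 0.11 on the log2 scale, and CCNH and ERCC2 were not called.

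Of the 14 TFIID genes, 7 rose, 1 fell and 6 were not called, with a median log2 fold change of 0.114 (all genes, -0.002). That is 57.1% called, against 51.2% of all genes tested. The counts of TFIID genes that rose and fell were 2 and 0 in experiment 2 alone and 1 and 0 without the experiment block. TAF3 (ENSG00000165632, chr10:7818504-8016627, plus strand), the subunit that reads trimethylated lysine on the tail of histone H3, stood at 17.4, 16.4, 18.2 and 16 CPM without plasmid, at 22.2, 21.5, 23.2 and 25.2 CPM with dCas9-VP160 and at 24.2, 24.4, 21.4 and 25.9 CPM with the guides. The 4 no-plasmid libraries were the lowest of the 12, and TAF3 rose 1.37-fold with dCas9-VP160 (log2 fold change 0.46, SE 0.086, adjusted p = 6.88e-05), a call that held in every alternative. TBP stood at 42.7, 36.3, 39.5 and 41.3 CPM without plasmid, at 45.6, 47.7, 45.8 and 46.7 CPM with dCas9-VP160 and at 40.8, 45.3, 48 and 41.7 CPM with the guides. The dCas9-VP160 libraries lay above all no-plasmid libraries, a rise of 0.22 on the log2 scale (SE 0.063, adjusted p = 0.00414), whereas the libraries with guides overlapped both groups. That call of TBP was lost with DESeq2, without the experiment block, with the replicate 1 libraries alone and in experiment 2 alone. TAF9, a histone-fold partner of TAF6, stood at 85.3, 89.2, 106 and 93.3 CPM without plasmid, at 102, 114, 109 and 112 CPM with dCas9-VP160 and at 91, 88.5, 113 and 109 CPM with the guides, and rose by 0.23 (SE 0.053) on the log2 scale, with groups that overlapped. TAF9 shares 20.6% of its exon bases with AK6 on the same strand. It also shares 14.7% with RAD17 on the opposite strand, which the kits do not tell apart, so its value is uncertain. TAF12, TAF13, TAF2 and TAF10 rose by 0.26, 0.44, 0.17 and 0.12. The calls of TAF2 and TAF13 were lost without the dCas9-VP160 library of experiment 1 replicate 1 (adjusted p = 0.0538 and 0.0571), those of TAF13 and TAF10 also without no plasmid experiment 1 replicate 2, and that of TAF10 without no plasmid experiment 2 replicate 2 (adjusted p = 0.235). TAF10 shares 38.9% of its exon bases with ILK.

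TAF1, the scaffold subunit with tandem bromodomains, stood at 39.6, 39.5, 38.5 and 44.1 CPM without plasmid, at 38, 33.6, 37 and 33.7 CPM with dCas9-VP160 and at 43.3, 33.4, 43.9 and 43.1 CPM with the guides. The dCas9-VP160 libraries were below all no-plasmid libraries, and TAF1 was called lower (log2 fold change -0.18, SE 0.069, adjusted p = 0.0281). However, 5 single libraries each ended that call, with an adjusted p of 0.194 without no plasmid experiment 2 replicate 2. The other 4 were no plasmid experiment 1 replicate 1, dCas9-VP160 experiment 1 replicate 2, dCas9-VP160 experiment 2 replicate 2 and guides experiment 1 replicate 1. TAF7 stood at 211, 231, 240.0 and 244 CPM without plasmid, at 218, 212, 242 and 250.0 CPM with dCas9-VP160 and at 226, 253, 245 and 248 CPM with the guides, and TAF4 at 3.98, 4.86, 4.73 and 5.12 CPM without plasmid, at 3.29, 3.07, 6.12 and 4.41 CPM with dCas9-VP160 and at 4.19, 2.8, 4.97 and 3.42 CPM with the guides. In both the groups overlapped and the test gave no call (TAF7, log2 fold change -0.003, SE 0.041, adjusted p = 0.955; TAF4, log2 fold change -0.16, SE 0.174, adjusted p = 0.454). TAF5, TAF6, TAF8 and TAF11 were not called either, with log2 fold changes from -0.17 to 0.1. TAF11 lay just outside the threshold (log2 fold change -0.17, SE 0.07, adjusted p = 0.0513) and was called lower in 10 of the 24 alternatives, among them RLE scaling (adjusted p = 0.0448) and upper-quartile scaling (adjusted p = 0.0153). Leaving out any 1 of no plasmid experiment 1 replicate 2, dCas9-VP160 experiment 1 replicate 2, dCas9-VP160 experiment 2 replicate 2 and guides experiment 1 replicate 2 also gave this call (adjusted p down to 0.0173). TAF6 was called higher in 1, without no plasmid experiment 2 replicate 1 (0.138, adjusted p = 0.0339).

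Larger changes were seen in TAF genes outside canonical TFIID. TAF4B (ENSG00000141384, chr18:26225936-26391685, plus strand), a paralog of TAF4 best known from germ cells and ovary, stood at 15.9, 20.6, 18.8 and 18.2 CPM without plasmid, at 34.2, 32.6, 31.8 and 33.5 CPM with dCas9-VP160 and at 25, 26.7, 27 and 26.5 CPM with the guides. The 3 groups did not overlap, with dCas9-VP160 alone the highest, and the rise over no plasmid was 1.8-fold (log2 fold change 0.84, SE 0.077, adjusted p = 6.77e-10). TAF7L (ENSG00000102387, chrX:101268253-101293057, minus strand), a paralog of TAF7 best known from testis and fat cells, stood at 34.9, 31.8, 45.5 and 39.7 CPM without plasmid, at 57, 60.8, 69.1 and 74.4 CPM with dCas9-VP160 and at 65, 71.1, 82.2 and 83.3 CPM with the guides. It rose 1.74-fold (log2 fold change 0.8, SE 0.059, adjusted p = 1.47e-11), with both plasmid groups above every no-plasmid library. TAF9B (ENSG00000187325, chrX:78129748-78139706, minus strand), a paralog of TAF9 that can take its place, went the other way, at 139, 144, 148 and 135 CPM without plasmid, at 97, 96.5, 95.2 and 100.0 CPM with dCas9-VP160 and at 96.6, 101, 94.7 and 95.1 CPM with the guides. Its 4 no-plasmid libraries stood above the other 8, and it fell (log2 fold change -0.53, SE 0.045, adjusted p = 2.09e-10). TAF11L12 (ENSG00000249156, chr5:17610496-17611583, plus strand) and TAF11L14 (ENSG00000250782, chr5:17634460-17635053, plus strand), TAF11-like genes of a repeated cluster, had the largest falls of all members. TAF11L12 stood at 15.1, 12.9, 16.6 and 13.4 CPM without plasmid, at 4.64, 3.51, 6.01 and 4.08 CPM with dCas9-VP160 and at 4.19, 4.63, 5.08 and 4.7 CPM with the guides, a change of -1.65 (SE 0.127, adjusted p = 3.09e-11), and TAF11L14 changed by -1.49 (SE 0.251). The copies of this cluster are near-identical, so reads can be shared between them and the values of both are uncertain.

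The level per kb of exon of each paralog was also set against that of its relative in every library. TAF9B to TAF9 was 1.4 ± 0.13 (SD, n = 2 experiments) without plasmid, 0.826 ± 0.0155 with dCas9-VP160 and 0.902 ± 0.166 with guides: every no-plasmid library was above 1 (lowest 1.29), and every library with plasmid was lower than that (highest 1.06). TAF4B to TAF4 was 7.17 ± 0.523, 15.3 ± 5.3 and 12.4 ± 1.54 in the same order, with a wide spread at the low counts of TAF4. TAF7L to TAF7 was 0.162 ± 0.0183, 0.283 ± 0.0148 and 0.311 ± 0.0367, so TAF7 RNA stayed the more abundant in all groups. In the kinase module, MED12L to MED12 was 0.0771 ± 0.0148, 0.152 ± 0.00639 and 0.231 ± 0.0679, with no overlap between the 3 groups, and CDK19 to CDK8 was 0.464 ± 0.0772, 0.334 ± 0.000752 and 0.294 ± 0.0183. MED13L to MED13 was 0.416 ± 0.028, 0.354 ± 0.00419 and 0.379 ± 0.0198, and here the libraries with guides overlapped both other groups. The length used is that of all annotated exons together, 37364 bases for MED13L and 12677 for MED13. Whether a ratio lies above or below 1 depends on these lengths, but its direction between groups does not. Without scaling by length, MED13L stood at 79.3 CPM and MED13 at 64.7 CPM in cells without plasmid. The shared exons of TAF9, given above, leave its ratio uncertain too. The ratios are described and were not tested.

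**Figure D3:**
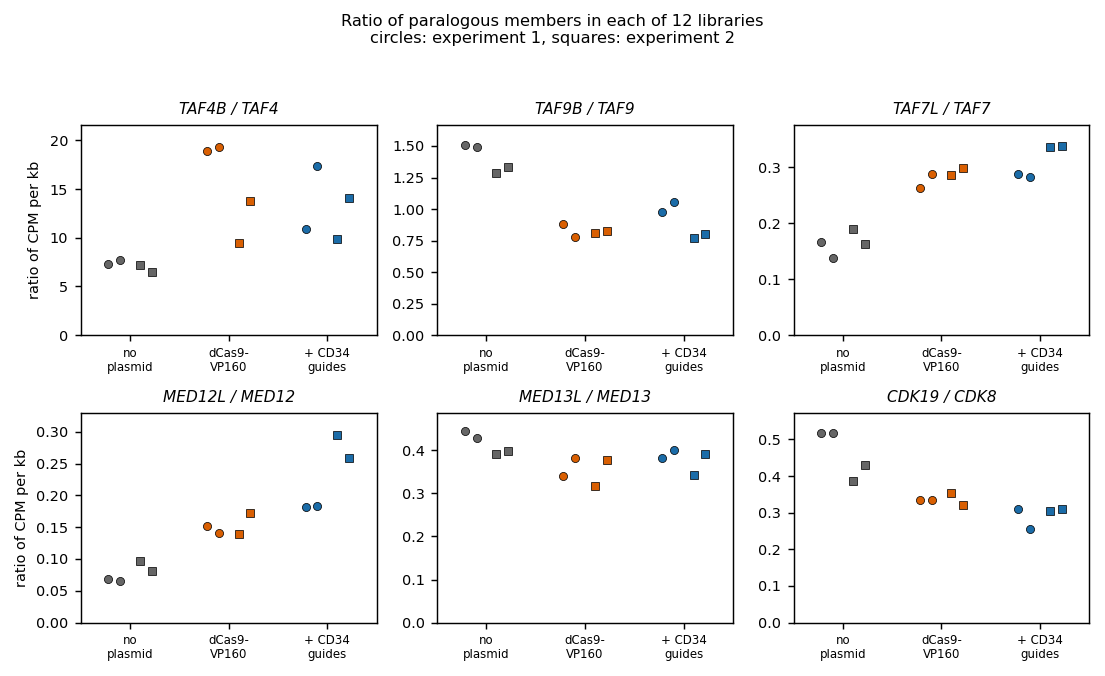
Ratio of CPM per kb between paralogous members in each of the 12 libraries, for 6 pairs and the 3 groups (circles, experiment 1; squares, experiment 2). TAF9B to TAF9 falls from 1.29 or more to 1.06 or less, and TAF7L to TAF7 and MED12L to MED12 are higher in all 8 libraries with plasmid than in the 4 without.

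TAF15, an RNA-binding protein first found with TFIID, stood at 69.6, 67.3, 47.8 and 59.3 CPM without plasmid, at 47, 40.9, 32 and 37.5 CPM with dCas9-VP160 and at 39, 29.1, 35.3 and 38.6 CPM with the guides. It fell to 0.651 of the no-plasmid level with dCas9-VP160 (log2 fold change -0.62, SE 0.077, adjusted p = 3.53e-07), and no library with plasmid reached the no-plasmid range. Of the 4 TAFs of SL1, the factor that places TBP at the promoters of ribosomal RNA genes for RNA polymerase I, TAF1D and TAF1A rose and TAF1B and TAF1C were not called, though TAF1C was called lower without no plasmid experiment 1 replicate 2 (-0.203, adjusted p = 0.0465). TAF1D (ENSG00000166012, chr11:93729948-93784391, minus strand) stood at 59.1, 55.6, 63.9 and 59.7 CPM without plasmid, at 99.3, 95.9, 107 and 99.4 CPM with dCas9-VP160 and at 75.6, 70.6, 79.5 and 79 CPM with the guides. The 3 groups did not overlap, and the rise with dCas9-VP160 alone was 1.7-fold (log2 fold change 0.76, SE 0.051, adjusted p = 1.61e-12). Exons of TAF1D overlap several snoRNA genes and MIR1304 on the same strand, each at most 1.7% of its exon bases. They also overlap CEP295 (3.0%) and C11orf54 (2.1%) on the opposite strand, so its value is uncertain. TAF1A stood at 14.3, 11.5, 13.7 and 11.6 CPM without plasmid, at 19.9, 14.6, 17.4 and 15.7 CPM with dCas9-VP160 and at 12.2, 11.4, 14.7 and 12.8 CPM with the guides, and rose by 0.44 (SE 0.102) with dCas9-VP160 alone, whose 4 libraries were the highest of the no-plasmid and dCas9-VP160 libraries. TAF5L and TAF6L, the paralogs that take the place of TAF5 and TAF6 in the SAGA coactivator, both fell, by 0.3 and 0.25 on the log2 scale.

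Of the 33 Mediator genes, 7 rose, 12 fell and 14 were not called, with a median log2 fold change of -0.006 (all genes, -0.002). That is 57.6% called, against 51.2% of all genes tested (26.6% higher, 24.6% lower), which were divided as well. The counts of Mediator genes that rose and fell were 5 and 9 in experiment 2 alone and 3 and 5 without the experiment block. By module, 3 rose and 3 fell of 12 in the head, 1 rose and 2 fell of 8 in the middle, 1 rose and 3 fell of 5 in the tail, 2 rose and 3 fell of 7 in the kinase module, and the scaffold MED14 fell. MED10 (ENSG00000133398, chr5:6371881-6378594, minus strand), a small subunit of the middle module, had the largest rise of all members. It stood at 75, 65.5, 81.5 and 82.7 CPM without plasmid, at 134, 136, 148 and 143 CPM with dCas9-VP160 and at 142, 139, 147 and 156 CPM with the guides. Its lowest library with plasmid was well above its highest without, and it rose 1.85-fold (log2 fold change 0.89, SE 0.048, adjusted p = 2.4e-14). MED8 (ENSG00000159479, chr1:43383917-43389808, minus strand), a head subunit, stood at 50.9, 51.4, 55.8 and 53 CPM without plasmid, at 94.5, 97.1, 95.8 and 96 CPM with dCas9-VP160 and at 104, 99.4, 110.0 and 95.8 CPM with the guides. It rose 1.82-fold (log2 fold change 0.86, SE 0.052, adjusted p = 1.95e-13), and the 2 experiments gave 0.91 and 0.82 on the log2 scale. MED27, a subunit between head and tail, stood at 39.3, 39, 48.6 and 43.1 CPM without plasmid, at 60.3, 64.6, 61.5 and 59.4 CPM with dCas9-VP160 and at 59.1, 48.1, 50.4 and 50.8 CPM with the guides. It rose by 0.53 (SE 0.067) with dCas9-VP160 alone, and the guide libraries lay between, overlapping the no-plasmid range in 1 library. MED19 rose by 0.27 (SE 0.072).

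MED17, the central subunit of the head and a contact of VP16, stood at 96, 99.5, 95.2 and 105 CPM without plasmid, at 78.3, 76.5, 87.3 and 90.6 CPM with dCas9-VP160 and at 80.1, 78.2, 83.4 and 84.1 CPM with the guides. All libraries with plasmid were below all without, and it fell (log2 fold change -0.25, SE 0.051, adjusted p = 0.000181). MED17 and TAF1D are neighbours on opposite strands whose exons share 88 bases (0.5% of the exon bases of MED17), and one fell while the other rose; MED17 also shares 13.0% of its exon bases with AP001273.2. MED11 and MED28 of the head fell by 0.42 and 0.17 on the log2 scale, with 31.1 and 32.1% of their exon bases shared with overlapping genes, which leaves these values uncertain. In the middle module, MED9 and MED7 fell by 0.33 and 0.26. MED1, the subunit that nuclear receptors bind, stood at 92.5, 99.9, 74 and 82.5 CPM without plasmid, at 103, 74.1, 76.6 and 75.8 CPM with dCas9-VP160 and at 91.6, 75.1, 78.1 and 75.7 CPM with the guides. Its groups overlapped and it was not called (log2 fold change -0.06, SE 0.052, adjusted p = 0.352), except without the dCas9-VP160 library of experiment 1 replicate 1, at 103 CPM the highest of its group, when it was called lower (-0.184, adjusted p = 0.0195), and with the replicate 2 libraries alone (-0.273). MED14 stood at 95.1, 114, 109 and 116 CPM without plasmid, at 75.6, 75.7, 96.2 and 83.8 CPM with dCas9-VP160 and at 75.2, 86.6, 83 and 92.4 CPM with the guides. It fell (log2 fold change -0.4, SE 0.05, adjusted p = 1.72e-07), with 1 dCas9-VP160 library, at 96.2 CPM, above the lowest no-plasmid library.

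In the tail, which meets activators, MED24, MED23 and MED25 fell and MED15 rose. MED25, the subunit best known as the target of VP16, stood at 44.8, 41.4, 43.6 and 35.6 CPM without plasmid, at 36.4, 38.6, 32.5 and 32.7 CPM with dCas9-VP160 and at 33.5, 31.5, 31.8 and 30.5 CPM with the guides. It fell by 0.23 on the log2 scale (SE 0.067, adjusted p = 0.0055) with some overlap, and 18.7% of its exon bases are shared with PTOV1-AS1. The call of MED25 was lost with DESeq2, without the experiment block, with the replicate 2 libraries alone and in experiment 1 alone. MED15, a target of SREBP and other activators, stood at 69.6, 71.4, 67.4 and 65.5 CPM without plasmid, at 81.7, 84.2, 86.6 and 71.1 CPM with dCas9-VP160 and at 68.5, 62, 64.8 and 63.3 CPM with the guides. It rose by 0.23 (SE 0.052), with 1 of the dCas9-VP160 libraries, at 71.1 CPM, inside the no-plasmid range. MED23 stood at 98.4, 111, 90.4 and 103 CPM without plasmid, at 89, 83, 81.4 and 85.8 CPM with dCas9-VP160 and at 96.1, 97.3, 95.2 and 102 CPM with the guides, and its 4 dCas9-VP160 libraries were the lowest of the 12 (log2 fold change -0.25, SE 0.049). MED24 fell by 0.39 (SE 0.043), and MED16 was not called.

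In the kinase module, MED12 (ENSG00000184634, chrX:71118556-71142454, plus strand), which activates the kinase, stood at 89.3, 95.5, 63.9 and 82.3 CPM without plasmid, at 57.2, 50.4, 56.9 and 47.9 CPM with dCas9-VP160 and at 57.5, 54.8, 45 and 42.8 CPM with the guides. Every library with plasmid was below every library without, and MED12 fell (log2 fold change -0.64, SE 0.061, adjusted p = 1.84e-09). Its paralog MED12L (ENSG00000144893, chr3:151085697-151437072, plus strand) stood at 10.5, 10.5, 10.5 and 11.4 CPM without plasmid, at 14.8, 12, 13.5 and 14 CPM with dCas9-VP160 and at 17.8, 17.1, 22.5 and 18.8 CPM with the guides, with no overlap between any of the 3 groups. MED12L rose by 0.35 (SE 0.106, adjusted p = 0.00717), a call lost without dCas9-VP160 experiment 1 replicate 1 (0.27, adjusted p = 0.0585), and 28.8% of its exon bases are shared with IGSF10. CDK8, the kinase, stood at 20.7, 19.8, 22.9 and 21.8 CPM without plasmid, at 22.8, 22.8, 25.1 and 24.9 CPM with dCas9-VP160 and at 23.1, 22.9, 26.7 and 20.8 CPM with the guides, and was not called (log2 fold change 0.18, SE 0.08, adjusted p = 0.0683). CDK19, its paralog, stood at 22.7, 21.7, 18.7 and 19.8 CPM without plasmid, at 16.1, 16.2, 18.8 and 16.9 CPM with dCas9-VP160 and at 15.1, 12.4, 17.2 and 13.7 CPM with the guides, and was called lower (log2 fold change -0.29, SE 0.095, adjusted p = 0.0141) although 1 library with dCas9-VP160 was within the no-plasmid range. The call of CDK19 was lost with DESeq2, without the experiment block, with the replicate 1 libraries alone and in experiment 2 alone. CCNC, the cyclin of both kinases, stood at 132, 128, 150.0 and 141 CPM without plasmid, at 154, 145, 156 and 155 CPM with dCas9-VP160 and at 139, 155, 162 and 156 CPM with the guides. It was called higher by 0.16 (SE 0.044) with groups that overlapped. MED13, which links the module to core Mediator, stood at 62, 65.1, 64 and 67.3 CPM without plasmid, at 60.8, 55.4, 67.3 and 64.9 CPM with dCas9-VP160 and at 54.7, 53.3, 60.7 and 58.8 CPM with the guides, and was not called (log2 fold change -0.052, SE 0.056, adjusted p = 0.462), while its paralog MED13L fell by 0.28 (SE 0.057).

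CREBBP and EP300, the paired histone acetyltransferases, stood at similar levels per kb (8.35 ± 0.079 and 7.91 ± 0.00566 CPM per kb without plasmid). CREBBP stood at 136, 124, 137 and 125 CPM without plasmid, at 113, 116, 104 and 114 CPM with dCas9-VP160 and at 105, 101, 111 and 117 CPM with the guides. All libraries with plasmid were below all without, a fall of 0.21 on the log2 scale (SE 0.048, adjusted p = 0.00066). EP300 stood at 104, 95.5, 99.7 and 98.4 CPM without plasmid, at 85.8, 90.8, 96.8 and 95.6 CPM with dCas9-VP160 and at 81.8, 84.3, 92.1 and 88.2 CPM with the guides, and with dCas9-VP160 alone it was not called (log2 fold change -0.1, SE 0.049, adjusted p = 0.085), except with upper-quartile scaling (-0.143, adjusted p = 0.0178). Of the 9 members listed as contacts of VP16-type activation domains, 5 rose (TBP, GTF2B, GTF2H1, MED15 and TAF9), 3 fell (MED25, MED17 and CREBBP) and EP300 was not called, a median log2 fold change of 0.224 (all genes, -0.002). The share called was 88.9%, against 51.2% of all genes tested. The counts of contacts that rose and fell were 3 and 2 in experiment 2 alone and 2 and 0 without the experiment block. Among the contacts, only the calls of GTF2B and GTF2H1 held under all 24 alternatives. In the TFII-I family, GTF2I, a factor of initiator elements and signalling, fell by 0.26, GTF2IRD1 rose by 0.41, and the low genes GTF2IRD2 and GTF2IRD2B, near-identical copies, were not called.

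**Figure D4:**
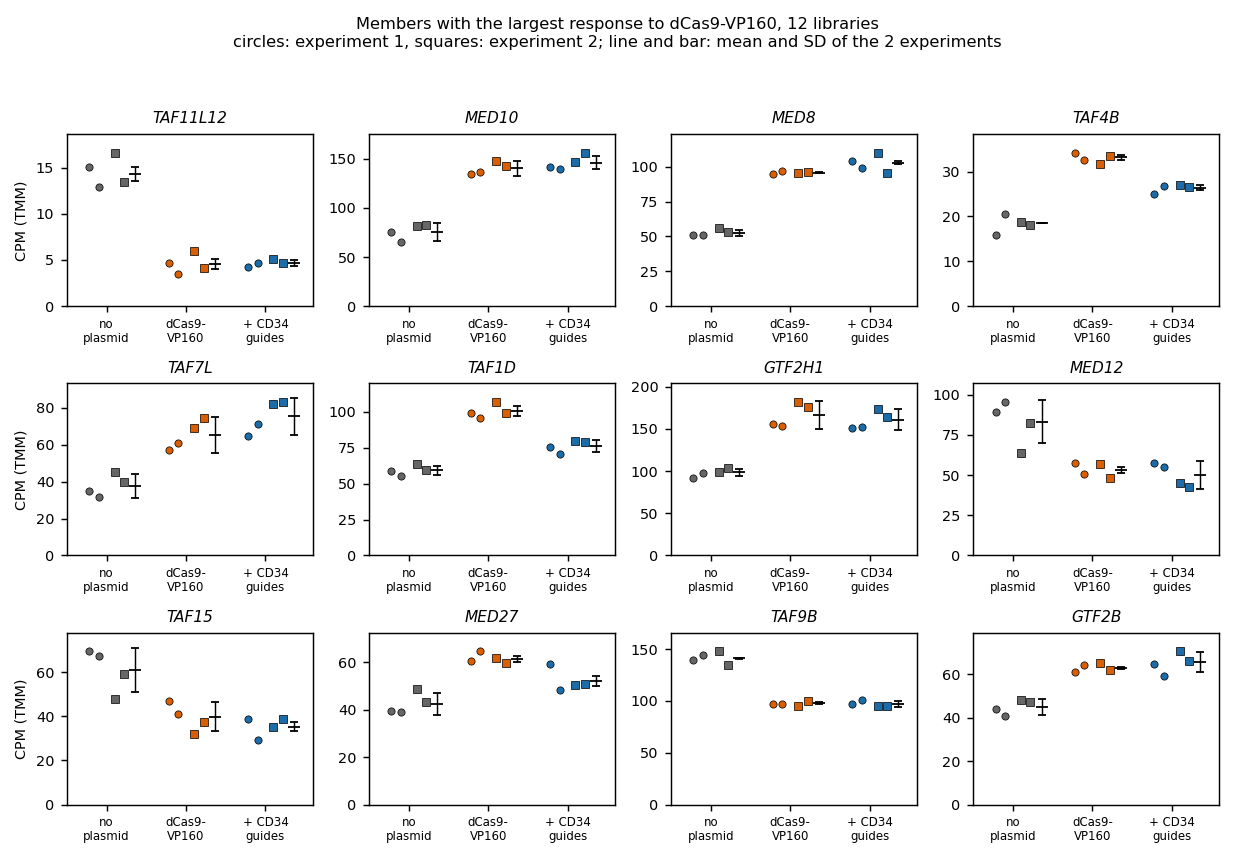
CPM in each of the 12 libraries for the 12 members at a mean of 5 CPM or more with the largest called change between dCas9-VP160 and no plasmid (circles, experiment 1; squares, experiment 2; line and bar, mean and SD of the 2 experiments; each axis starts at 0). In all 12 genes the 4 dCas9-VP160 libraries lie wholly on one side of the 4 no-plasmid libraries; TAF4B, TAF1D and MED27 are lower with guides than with dCas9-VP160 alone.

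Promoter sequence, which the rule did not use, was searched for short motifs. RefSeq promoters (GRCh38.p14, 250 bases before to 50 after the start) were found for 64 of the 80 genes, 62 of them tested. The letters CCGGAA, the core of the motif of ETS factors, occurred on either strand in 28 of the 62 (45.2%), against 17.2% of all 35116 promoters in the table and 23.1% of those of protein-coding genes. They were in 52.0% of the promoters of the genes called higher with dCas9-VP160, in 36.8% of those called lower and in 44.4% of those not called. AAGATGGCG, the motif of YY1, occurred in 12.9% against 1.75% of all promoters and 2.81% of those of protein-coding genes (called higher, 4.0%; called lower, 10.5%; not called, 27.8%), and TATAAA, the TATA box, in 8.06% against 11.5% and 9.52%. The other letters searched, also on both strands, were CCAAT (38.7% of the members, 34.6% of all promoters), CACGTG (14.5 and 7.26%), TGACGTCA (4.84 and 1.85%), its core TGACG, which overlaps it (33.9 and 24.6%), and TGATGNAA (0 and 3.62%). Among promoters of protein-coding genes these shares were 36.7, 8.9, 2.65, 29.7 and 2.52%. GGGCGG was in 54.8% of the members, above the 45.0% of all promoters and below the 59.4% of protein-coding genes. The 4 promoters below were picked after the values were seen, to show 1 gene that rose and 1 that fell with the ETS letters and 1 of each without them. Each is printed 5′ to 3′ on the strand of its gene, from 250 bases before the start to the last base before the first annotated exon, and capitals mark CCGGAA or its reverse complement TTCCGG; AAGATGGCG and TGACGTCA were also marked where found and occur in none of the 4. MED10 (chr5:6378595-6378797 on the minus strand) rose and TAF9B (chrX:78139707-78139900 on the minus strand) fell, and neither stretch holds the letters. TAF3 (chr10:7818255-7818503 on the plus strand) rose, with the letters on the opposite strand beginning 121 bases before the start, and MED12 (chrX:71118346-71118555 on the plus strand) fell, with them on the gene's strand beginning 160 bases before the start. A match in letters is a description and no evidence of binding.
MED10: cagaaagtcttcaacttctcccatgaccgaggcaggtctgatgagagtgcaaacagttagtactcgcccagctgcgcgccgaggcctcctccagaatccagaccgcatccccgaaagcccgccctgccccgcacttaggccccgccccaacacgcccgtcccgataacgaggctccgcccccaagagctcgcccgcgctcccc
TAF3: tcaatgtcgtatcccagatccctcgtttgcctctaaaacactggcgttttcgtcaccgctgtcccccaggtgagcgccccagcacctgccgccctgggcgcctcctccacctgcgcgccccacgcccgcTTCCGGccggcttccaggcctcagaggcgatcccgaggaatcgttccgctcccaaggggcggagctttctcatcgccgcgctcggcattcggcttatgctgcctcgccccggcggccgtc
MED12: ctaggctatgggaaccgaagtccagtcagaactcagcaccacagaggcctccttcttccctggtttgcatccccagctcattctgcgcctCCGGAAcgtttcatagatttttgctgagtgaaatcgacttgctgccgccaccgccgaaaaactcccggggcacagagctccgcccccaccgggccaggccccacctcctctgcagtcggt
TAF9B: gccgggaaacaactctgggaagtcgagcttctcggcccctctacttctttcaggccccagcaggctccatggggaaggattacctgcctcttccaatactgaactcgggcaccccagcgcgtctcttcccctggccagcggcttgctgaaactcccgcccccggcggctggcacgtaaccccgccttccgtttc

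Across the 77 members, the log2 fold change with dCas9-VP160 had a Spearman rho of -0.25 with exon length and -0.15 with GC content, against -0.05 (19457 genes) and -0.06 (19450 genes) over all tested genes with a value. These are correlations across genes, which share the same libraries and are not independent replicates.

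The second question was what the 6 CD34 guides added to dCas9-VP160 alone. Few members differed: MED12L, TAF7L and MED23 were called higher, and TAF1A, TAF1D, MED18, TAF4B, MED15, MED30 and MED27 lower. That is 13.0% of the 77, against 7.56% of all genes tested (4.16% higher, 3.41% lower). In 8 genes (10.4%, against 8.5% of all genes) the libraries of the 2 groups did not overlap. The median log2 fold change was -0.035 over the members and -0.004 over all genes. None of the 12 general factors and none of the 14 TFIID genes was called in the main fit. Their log2 fold changes ran from -0.17 to 0.056 and from -0.13 to 0.19. Some alternatives did call TAF10, GTF2H3 and TAF9 lower and TAF1 and TAF11 higher. Examples were TAF10 with upper-quartile scaling (-0.14) and GTF2H3 with the replicate 1 libraries alone (-0.334). No call of the main fit held under all 24 alternatives. DESeq2 gave 0 higher and 2 lower, and the model without the experiment block 0 and 0. The replicate 1 libraries alone gave 2 and 6, and the replicate 2 libraries alone, which include the guide libraries with the higher mitochondrial share, gave 0 and 2. The part of that share in these results was not tested. Leaving out no plasmid experiment 2 replicate 2, which shares the fit but not the comparison, left 1 higher and 4 lower, and leaving out dCas9-VP160 experiment 1 replicate 1 left 3 and 4.

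TAF1D had the smallest p of the 10. Its 4 guide libraries, at 75.6, 70.6, 79.5 and 79 CPM, lay between the no-plasmid libraries and those with dCas9-VP160 alone (99.3, 95.9, 107 and 99.4 CPM), a change of -0.4 (SE 0.05, adjusted p = 8.57e-06) that was lost only without the experiment block. The shared exons of TAF1D, given above, leave this value uncertain too. MED15 was lower than with dCas9-VP160 alone in every library and overlapped its no-plasmid range: 68.5, 62, 64.8 and 63.3 CPM with guides against 81.7, 84.2, 86.6 and 71.1 CPM with dCas9-VP160 alone (log2 fold change -0.31, SE 0.053, adjusted p = 0.000401). TAF4B went from 34.2, 32.6, 31.8 and 33.5 CPM to 25, 26.7, 27 and 26.5 CPM (log2 fold change -0.33, SE 0.074, adjusted p = 0.0053), still above the no-plasmid libraries. MED12L went further from them, from 14.8, 12, 13.5 and 14 CPM to 17.8, 17.1, 22.5 and 18.8 CPM (log2 fold change 0.48, SE 0.098, adjusted p = 0.00268). For MED23, the guide libraries, at 96.1, 97.3, 95.2 and 102 CPM, were above the dCas9-VP160 libraries (log2 fold change 0.19, SE 0.05, adjusted p = 0.0174), and the call was lost without no plasmid experiment 2 replicate 2 (adjusted p = 0.0909). TAF7L had a change of 0.21 (SE 0.055, adjusted p = 0.0197) with groups that overlapped, and leaving out any 1 of no plasmid experiment 2 replicate 2, dCas9-VP160 experiment 1 replicate 1 and guides experiment 1 replicate 2 ended the call (adjusted p up to 0.0889).

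TAF1A changed by -0.42 (SE 0.104, adjusted p = 0.013), which rested on dCas9-VP160 experiment 1 replicate 1: without it the change was -0.28 with an adjusted p of 0.16. MED27 changed by -0.23 (SE 0.066), with no overlap between the groups. Of the single libraries, 5 ended this call: no plasmid experiment 2 replicate 2, dCas9-VP160 experiment 1 replicate 2 and the guide libraries of experiment 1 replicate 2, experiment 2 replicate 1 and experiment 2 replicate 2 (adjusted p up to 0.167). MED18, a head subunit, stood at 22.5, 17.5, 14.8 and 13.5 CPM without plasmid, at 21, 13.3, 15.9 and 15 CPM with dCas9-VP160 and at 12.6, 13.5, 12.9 and 12.7 CPM with the guides; its change was -0.37 (SE 0.108), and the dCas9-VP160 library of experiment 1 replicate 1, at 21.0 CPM, stood apart from the other 3. Without that library the change was -0.23 (adjusted p = 0.347), and no plasmid experiment 2 replicate 2, dCas9-VP160 experiment 2 replicate 1 and both guide libraries of experiment 1 also ended the call. MED30, a head subunit, stood at 20.9, 20.9, 27.2 and 21.1 CPM without plasmid, at 21, 20.5, 26.3 and 23.6 CPM with dCas9-VP160 and at 15.4, 16.4, 23.6 and 19.2 CPM with the guides, with overlap between the groups. Its change of -0.28 (SE 0.088, adjusted p = 0.0477) was lost on leaving out any 1 of 8 libraries, all but no plasmid experiment 1 replicate 2 and experiment 2 replicate 1, dCas9-VP160 experiment 2 replicate 2 and guides experiment 2 replicate 1 (adjusted p up to 0.158).

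**Figure D5:**
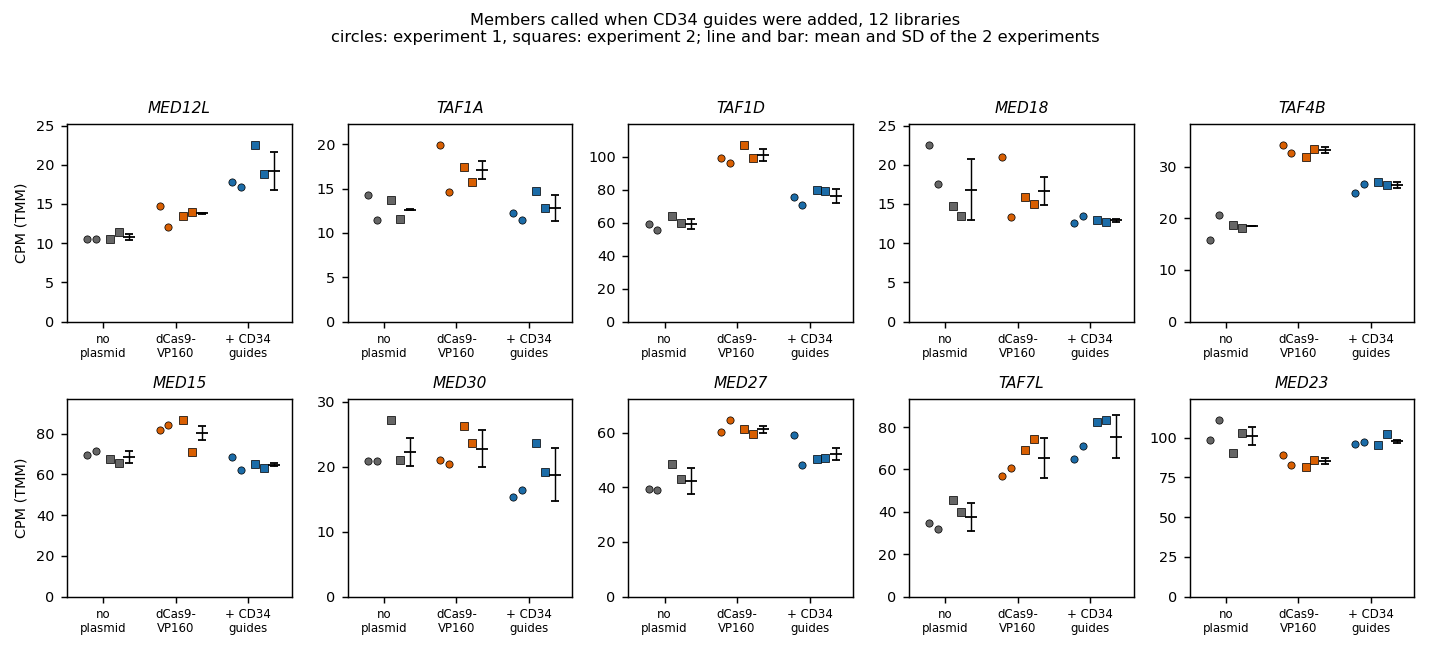
CPM in each of the 12 libraries for the 10 members called between dCas9-VP160 with CD34 guides and dCas9-VP160 alone (circles, experiment 1; squares, experiment 2; line and bar, mean and SD of the 2 experiments; each axis starts at 0). TAF1D, TAF4B, MED15 and MED27 are lower with guides in every library than in any dCas9-VP160 library, MED12L and MED23 are higher in every one, and TAF1A, MED18, MED30 and TAF7L overlap.

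Cells with dCas9-VP160 and guides were also set against cells without plasmid. This comparison shares its no-plasmid libraries with the first one and its guide libraries with the second, so its values are given beside them and are not independent of them. Of the 77 members 24 were higher and 24 lower (62.3% called, against 52.6% of all genes, 26.7% higher and 25.9% lower), and 19 higher and 30 lower with upper-quartile scaling, which moved the median of all genes from -0.0158 to -0.0633. In 40 genes (51.9%, against 38.9% of all genes) the libraries did not overlap. Without the experiment block 15 were higher and 15 lower. MED10 stood 1.93-fold above no plasmid (log2 fold change 0.95, SE 0.048, adjusted p = 5.07e-15), MED8 1.96-fold (log2 fold change 0.97, SE 0.052, adjusted p = 1.57e-14) and TAF7L 2.01-fold (log2 fold change 1.0, SE 0.059, adjusted p = 9.31e-14). For GTF2H1 the log2 fold change was 0.71 (SE 0.045), for GTF2B 0.55 (SE 0.06) and for TAF3 0.5 (SE 0.087). MED12L was 1.78-fold higher (log2 fold change 0.83, SE 0.102, adjusted p = 1.2e-07), and MED12 fell by 0.73 on the log2 scale (SE 0.063). The log2 fold changes of TAF15, TAF9B and TAF11L12 were -0.79, -0.54 and -1.62.

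By role, 7 of the 12 general factors were higher and 2 lower (median 0.274), 4 of the 14 TFIID genes were higher and none lower (median 0.065), and 9 of the 33 Mediator genes were higher and 12 lower (median -0.097; all genes, -0.0158). The shares called were 75.0, 28.6 and 63.6% in that order, against 52.6% of all genes tested. Of the 9 contacts of VP16-type domains 3 were higher and 4 lower, with a median of -0.08 where that with dCas9-VP160 alone was 0.224. Between the 2 plasmid groups, however, only MED15 of the 9 was called, and their median log2 fold change was -0.07. Against no plasmid, MED15 went from 0.23 with dCas9-VP160 alone to -0.08 with guides. EP300, not called in the first comparison, was called lower here (log2 fold change -0.19, SE 0.05, adjusted p = 0.00247), as was CREBBP (-0.26, SE 0.049). TBP was called higher by 0.15 (SE 0.064, adjusted p = 0.0463), but 7 single libraries each ended that call, with an adjusted p of up to 0.25 without no plasmid experiment 1 replicate 2. The others were the no-plasmid libraries of experiment 2, guides experiment 1 replicate 2, guides experiment 2 replicate 1, dCas9-VP160 experiment 1 replicate 1 and dCas9-VP160 experiment 2 replicate 2.

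Between the 2 experiments, over all 3 groups, 25 of the 77 members differed, 15 higher and 10 lower in experiment 2 (32.5%, against 24.2% of all genes). The ends were GTF2A1, higher by 0.59 (SE 0.06), and MED22, a head subunit, lower by 0.39 (SE 0.034). The median size of the log2 difference over the members was 0.115 between experiments and 0.248 between dCas9-VP160 and no plasmid. Whether the response itself differed between the experiments was tested on the 12 single libraries, where the spread is that of technical replicates. For dCas9-VP160 alone 0 of 77 members were called (edgeR, 6 at an unadjusted p under 0.05; DESeq2, 0 called and 1 so), against 0.0111% of all genes, and for the added guides 0 of 77 (edgeR, 4; DESeq2, 0 called and 2 so), against 0% of all genes. The difference was thus not detectable with these libraries.

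The neighbouring genes of the pathway, 54 in 5 lists fixed with the members, were read from the same fit. Like the members, these lists were chosen with earlier results of these data known. In all, 17 were higher, 15 lower and 22 not called with dCas9-VP160 alone, against 51.2% of all genes called, 26.6% higher and 24.6% lower. With dCas9-VP160 alone, 9 of 18 genes of pause release and elongation were higher, 0 lower and 9 not called, with a median log2 fold change of 0.123 (all genes, -0.002). They included ELL (log2 fold change 0.64, SE 0.092, adjusted p = 1.56e-06) and ELL2 (0.5), elongation factors, TCEA1, which restarts stalled polymerase (log2 fold change 0.61, SE 0.052, adjusted p = 2.63e-10), and NELFE, a subunit of the pausing factor NELF (0.5). CDK9 and its cyclin CCNT1, the kinase of pause release, were not called (-0.05 and -0.01). Of 10 partners of VP16 or of coactivators outside the naming rule, 0 were higher, 7 lower and 3 not called (median -0.221). HCFC1, the host factor that VP16 binds in infected cells, fell (log2 fold change -0.66, SE 0.055, adjusted p = 1.41e-10), as did the receptor coactivators NCOA2 (-0.5) and NCOA3 (-0.34) and the remodelling subunits ARID1A (-0.41) and SMARCA4 (-0.22). POU2F1, the DNA-binding partner of VP16, was not called (-0.01).

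With dCas9-VP160 alone, 3 of 14 SAGA genes were higher and 6 lower (median -0.123), against 26.6% higher and 24.6% lower of all genes tested. SUPT20H (0.28), SUPT7L (0.23) and SGF29 (0.37), subunits of the complex, rose, and the genes that fell included KAT2B (-0.5) and KAT2A (-0.18), its alternative acetyltransferases, TRRAP (-0.37), its activator-binding subunit, and USP22 (-0.33), its deubiquitinase. Of 7 relatives and regulators of TBP, 3 were higher and 1 lower (median 0.005): DR1, a repressor that binds TBP on DNA, rose (log2 fold change 0.49, SE 0.042, adjusted p = 2.35e-10), BRF2 and BDP1 of the RNA polymerase III factor TFIIIB rose by 0.24 and 0.17, and BTAF1, which removes TBP from DNA, fell (log2 fold change -0.28, SE 0.043, adjusted p = 4.19e-06). When the guides were added, 1 of these 54 genes was higher (TCEA1, 0.18) and 1 lower (KAT2A, -0.21). Of all genes tested, 4.16% were higher and 3.41% lower in that comparison.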

How the data were processed

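The 12 libraries were made from total RNA with SMART-Seq HT and Nextera XT, which do not mark strand, per the labels' protocols. The deposited table holds raw read counts per gene; the submitters' processing notes name Trim Galore 0.3.7, STAR 2.6.0c, Picard 2.17.1, DESeq2 1.16.1 and the build hg38. The counting program is not stated there. Gene positions, types and exon lengths came from GENCODE 29 (GRCh38), which held 56812 of the 60604 identifiers.

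The 2 technical replicates of each experiment were summed to 6 libraries, since they differed by 1.84 to 4.37 times counting noise (chi-square per degree of freedom) and share their cells, and p-values thus rest on 2 experiments per group. Genes with low counts were removed (filterByExpr), TMM factors computed, and a quasi-likelihood model (edgeR 4.0.16 in R 4.3.3, robust) fitted to all 19662 genes with the 3 groups and the experiment as a block. It had 2 residual degrees of freedom, and a median of 24 prior degrees borrowed across genes, so the p-values depend on that pooling. Adjusted p-values in the report are from this test, or from the same test refitted under the alternative setting named beside them. They have Benjamini-Hochberg adjustment over all genes tested in that fit. A call means an adjusted p under 0.05, from DESeq2 or the test between experiments where these are named. SEs are approximate, from the log2 fold change and its F statistic. Deviations between experiments correlated across groups (r 0.616 to 0.631 over 12875 genes), so experiment numbers pair the samples, as the labels' batches of cells do. Technical replicate numbers did not (r -0.178 to 0.107).

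The members and gene lists were chosen with earlier results of these data known. Genes named with values in every library were the 12 called members with the largest change at 5 CPM or more in each comparison and a fixed list, 34 in all; other members are named as ends of their role group or for completeness. Alternatives were DESeq2 1.42.0, other scalings, other filters, blocks, single experiments, single replicates and each library left out. The authors' deposited table of 97 genes holds 0 of the members.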

Additional observations from a re-analysis of the deposited data

Results flagged for a closer look

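Among 102 sets of 4 libraries (34 members in 3 groups), 5 had 1 library whose gap to the nearest other passed Dixon's critical value for 4 samples; chance flags about 1 in 20. CCNC stood at 145 CPM in dCas9-VP160 experiment 1 replicate 2, the lowest of its group. MED1 stood at 103 CPM in dCas9-VP160 experiment 1 replicate 1, the highest of its group. MED12L stood at 11.4 CPM in no plasmid experiment 2 replicate 2, the highest of a narrow range. MED30 stood at 27.2 CPM in no plasmid experiment 2 replicate 1, the highest of its group. TAF1 stood at 33.4 CPM in the guide library of experiment 1 replicate 2, the lowest of its group; without it, TAF1 was called higher with guides than with dCas9-VP160 alone (0.285, adjusted p = 0.0113, edgeR).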

How the results depend on the processing

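None of the 34 members named with values in every library reversed a called direction under any of the 24 alternatives. Counts of members called were 28 higher and 23 lower for dCas9-VP160 against no plasmid, 3 and 7 for the added guides, 24 and 24 for guides against no plasmid, and 25 between experiments. Without the replicate block of the experiment they were 14 and 10, 0 and 0, and 15 and 15 in the first 3 comparisons; with technical replicate numbers as a further replicate block the first gave 27 and 24, the second 3 and 7 and the third 22 and 24. Technical replicate numbers do not pair libraries across groups, so this block describes only shared numbers. DESeq2 gave 18 higher in the first, 0 and 2 in the second and 14 between experiments. Experiment 2 alone gave 18 higher in the first, 1 and 1 in the second and 15 higher in the third; experiment 1 alone gave 0 higher in the second. Replicate 2 libraries alone gave 0 and 2 in the second and 11 between experiments. Leaving out 1 library gave 24 to 30 higher and 21 to 25 lower in the first, 1 to 3 and 4 to 8 in the second, 20 to 25 and 21 to 26 in the third, and 18 to 27 between experiments. Single experiments and replicates have fewer samples. For the other settings the cause was not tested. The shares of all genes called under each setting are not given, so a loss of calls particular to the members is not shown. Depth of 6750035 to 11932244 counts limits genes such as GTF2A1L and TAF1L, which had few counts or 0. The part of shared exons in the low counts of GTF2A1L and GTF2H4 was not tested.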
